A study of Mus musculus with 30 samples.

Results

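Alveolar type 1 (AT1) cells are the thin, flat cells that cover most of the gas exchange surface of the lung. They form the air side of the barrier to the capillaries, and they arise from alveolar type 2 (AT2) cells, the surfactant-producing progenitors, when the alveolus is repaired. Genes that mark AT1 cells were followed in mouse lung organoids, in which primary epithelial cells grow together with fibroblasts. The 10 genes, of 55487 in the count files, were chosen by symbol as known AT1 genes: Ager, Hopx, Aqp5, Pdpn, Cav1, Rtkn2, Akap5, Clic5, Emp2 and Vegfa. The choice was made with earlier results of these data known. Each symbol matched 1 row, and all 10 passed the filter on low counts in both fractions.

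Cultures held 300000 Epcam+ lung cells of wild type C57BL/6J mice, from adult lungs depleted of CD31+ and CD45+ cells, and as many CCL206 cells, a single line of mouse lung fibroblasts that mitomycin C had kept from dividing. They were exposed for 72 hours to vehicle, to EC (TNFα, IL-1β, IL-6 and IL-8, 4 factors raised in exacerbations of COPD, where the study's methods list KC in place of IL-8), to IPFc (9 factors raised in idiopathic pulmonary fibrosis: TGF-β, TNFα, TSLP, CCL2 and the interleukins IL-33, IL-13, IL-8, IL-4 and IL-1β) or to 2 ng/ml TGF-β. The cells were then separated with Epcam microbeads into Epcam+ cells (epithelial libraries) and Epcam- cells (fibroblast libraries), and each was sequenced as bulk RNA. The study's methods state that the medium also held the compound Y-27632 over these 72 hours, with vehicle and with EC. Cultures came from 4 mice. There were 4 libraries per group, except 3 for epithelial TGF-β (mice 2, 3 and 4) and 3 for fibroblast vehicle (mice 1, 3 and 4).

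The libraries held 5113828 to 20317181 counted reads. The fractions were not pure. The estimated share of fibroblast RNA in epithelial libraries was 5.98% ± 2.36 in vehicle (SD, n = 4), 11.3% ± 4.28 in EC (n = 4), 11.2% ± 5.30 in IPFc (n = 4) and 28.4% ± 3.03 in TGF-β (n = 3). The share of TGF-β exceeded that of vehicle by 22.4 percentage points (exact two-sided permutation test, p = 0.0571, the smallest that 4 against 3 libraries allow). By the same exact test, the difference was 5.34 points for EC (p = 0.0571) and 5.21 points for IPFc (p = 0.2), where 4 against 4 libraries allow a p of 0.0286. The test did not pair libraries by mouse. In mice 1 to 4 the share was 9.48%, 5.19%, 4.31% and 4.94% in vehicle. It was 15.4%, 13.1%, 5.39% and 11.4% in EC and 14.8%, 16.2%, 4.68% and 9.14% in IPFc, higher than vehicle in each mouse. The vehicle value of mouse 2 rests on a stand-in fibroblast profile. The reverse share, of epithelial RNA in fibroblast libraries, was 19.1% ± 6.86 in vehicle (n = 3), 39.8% ± 11.5 in EC, 18.1% ± 8.61 in IPFc and 1.98% ± 1.20 in TGF-β (n = 4 each). Thy1, a fibroblast surface marker, was at or near 0 in all groups, while the summed level of the 23 fibroblast reference genes reached 7239 to 26040 CPM in fibroblast libraries. The 9 endothelial markers summed to at most 27.3 CPM and the 9 immune markers to at most 14.5 CPM in any library.

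Among the members, Ager encodes the receptor for advanced glycation end products (RAGE), which is abundant at the basal side of AT1 cells. Hopx encodes a homeodomain-only cofactor, Aqp5 an apical water channel, and Pdpn podoplanin, a membrane mucin-like protein. Cav1 encodes caveolin-1, the main coat protein of caveolae. Rtkn2 encodes rhotekin 2, Akap5 an anchor for protein kinase A, Clic5 a chloride intracellular channel protein linked to the cortical actin skeleton, Emp2 a tetraspan protein of the PMP22 family, and Vegfa the growth factor that AT1 cells supply to the capillary endothelium.

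Promoters of 9 of the 10 members, in 12 windows from 250 bases before to 50 bases after a start, were available from RefSeq (GRCm38.p6). The 4 below are shown because the expression of the first pair fell and that of the second pair rose under TGF-β. Capitals mark ACGTG or its reverse complement, the core of the hypoxia response element bound by HIF. Where CACGTG occurs, both strands match and the matches overlap.
Ager, chr17:34597600-34597899, + strand: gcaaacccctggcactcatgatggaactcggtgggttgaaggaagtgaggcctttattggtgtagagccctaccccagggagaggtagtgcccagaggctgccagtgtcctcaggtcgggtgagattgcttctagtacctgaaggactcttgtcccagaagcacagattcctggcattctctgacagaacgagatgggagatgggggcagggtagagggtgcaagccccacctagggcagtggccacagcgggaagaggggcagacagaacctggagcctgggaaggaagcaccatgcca
Aqp5, chr15:99590778-99591077, + strand: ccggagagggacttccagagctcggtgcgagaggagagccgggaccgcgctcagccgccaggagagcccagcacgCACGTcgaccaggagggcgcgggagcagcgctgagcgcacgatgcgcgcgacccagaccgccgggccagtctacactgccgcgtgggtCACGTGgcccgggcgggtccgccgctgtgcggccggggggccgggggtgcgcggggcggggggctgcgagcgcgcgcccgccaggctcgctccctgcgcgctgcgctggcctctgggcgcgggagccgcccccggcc
Cav1, chr6:17306085-17306384, + strand: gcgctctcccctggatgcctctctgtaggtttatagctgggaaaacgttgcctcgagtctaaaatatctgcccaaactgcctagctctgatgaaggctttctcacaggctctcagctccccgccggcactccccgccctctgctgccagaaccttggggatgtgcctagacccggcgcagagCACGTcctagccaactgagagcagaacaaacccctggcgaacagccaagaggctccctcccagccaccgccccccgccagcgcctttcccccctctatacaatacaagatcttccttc
Vegfa, chr17:46032328-46032627, - strand: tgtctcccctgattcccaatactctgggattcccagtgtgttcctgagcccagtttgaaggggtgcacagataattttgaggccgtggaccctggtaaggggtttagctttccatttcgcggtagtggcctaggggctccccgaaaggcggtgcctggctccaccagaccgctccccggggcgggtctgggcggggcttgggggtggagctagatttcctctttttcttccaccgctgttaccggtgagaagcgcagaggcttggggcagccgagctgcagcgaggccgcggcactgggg
ACGTG was found on either strand in windows of 5 of the 9 members, namely Hopx, Aqp5, Pdpn, Cav1 and, in a second window, Vegfa, and in 19.6% of all 32851 windows. Members were counted by gene, and Hopx, Cav1 and Vegfa had more than 1 window each. The percentages here count windows, so that the counts and the percentages are not directly comparable. NKX2-1's CAAGTG was found in 1 member (Hopx) and in 13.6% of all windows. The TEAD letters GGAATG and the AP-1 letters TGACTCA were found in no member's window, and in 14.7% and 5.2% of all windows.

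In epithelial cells of EC-exposed cultures, 6 of the 10 AT1 genes fell and none rose. They were Ager, Hopx, Aqp5, Akap5, Clic5 and Emp2. Among all 18024 genes tested, 4.41% changed and 2.44% fell. In bulk libraries, fewer AT1 cells and less of a transcript per cell cannot be told apart. All changes are log2 fold changes from edgeR's quasi-likelihood test with the mouse as a block, and p-values were adjusted over all genes with the Benjamini-Hochberg method. The median of the 10 genes was -0.50, against 0.00 for all genes.

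Ager fell most. Its levels in vehicle were 243.9, 209, 239.5 and 201 CPM (counts scaled to a library total of 1000000) in mice 1 to 4. With EC they were 106, 97.7, 75.1 and 137 CPM. The groups did not overlap, and every mouse was lower with EC. On the log2 scale it changed by -1.06 (standard error 0.18, adjusted p = 0.000662). Clic5 went from 191, 173, 194 and 207 CPM to 120.1, 98.7, 116 and 89.6 CPM, again without overlap, which gave -0.82 (standard error 0.12, adjusted p = 0.000257). Akap5 fell by 0.73 (adjusted p = 0.00179), in all 4 mice.

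The remaining members that fell with EC changed less. Hopx was at 25.2, 25.9, 34.5 and 37.0 CPM in vehicle and at 17.5, 14.9, 19.1 and 25.7 CPM in EC. The groups overlapped, since the EC library of mouse 4 lay above the vehicle library of mouse 1, but each mouse was lower with EC. Hopx thereby changed by -0.63 (standard error 0.14, adjusted p = 0.00958), Emp2 by -0.38 (adjusted p = 0.00899) and Aqp5 by -0.36 (adjusted p = 0.0152). Cav1 did not pass the test (-0.31, adjusted p = 0.153), nor did Pdpn (0.06, 95% interval -0.23 to 0.36), Vegfa (-0.03, interval -0.21 to 0.16) or Rtkn2, whose level of about 1 CPM gave an interval of -1.47 to 0.19. After subtraction of the fibroblast share, with which 2.00% of all genes were called, 5 members still passed, and Aqp5 did not (-0.34, adjusted p = 0.0789). Without mouse 2, 3 passed (Ager, Akap5 and Clic5), where 2.82% of all genes were called. Without mouse 1 or mouse 3 (2.33% and 2.78% of all genes called), Aqp5 and Emp2 did not pass.

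**Figure D1:**
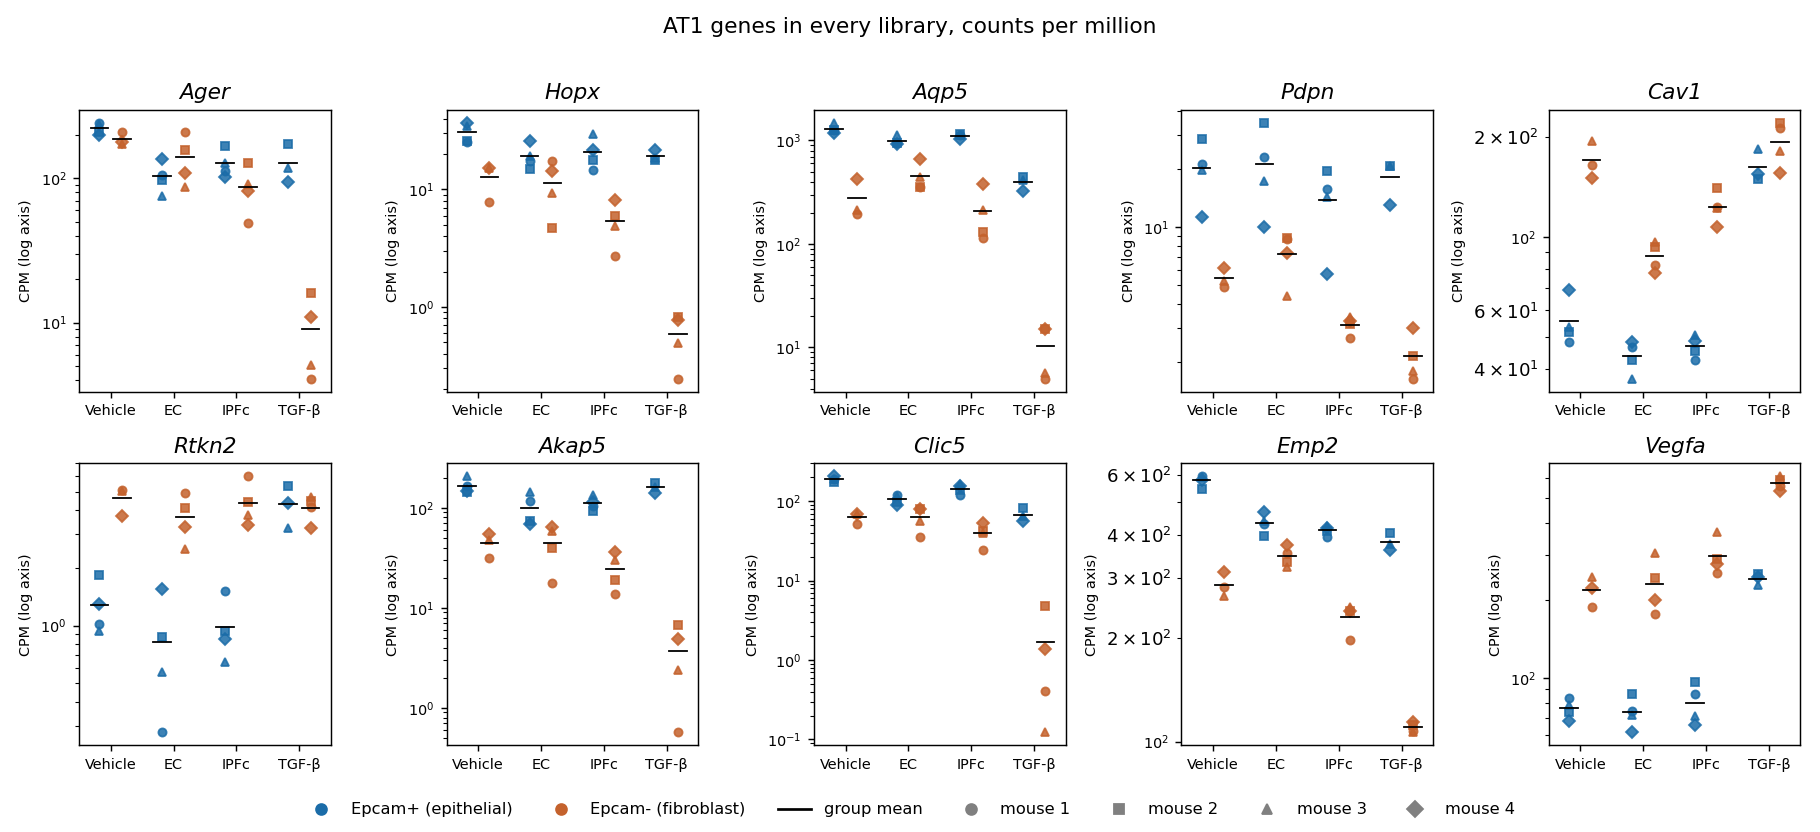
Level of each AT1 gene in every library, in CPM on a log axis, by treatment, with epithelial libraries in blue and fibroblast libraries in orange. Symbols mark the mice and lines the group means, and in TGF-β the fibroblast libraries of Ager, Hopx, Aqp5, Akap5 and Clic5 lie far below those of the other treatments.

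IPFc lowered 5 members in epithelial cells, namely Ager, Hopx, Pdpn, Akap5 and Emp2, and raised none. Of all genes, 4.10% changed and 1.53% fell. Ager was at 112, 168, 129 and 102 CPM, below every vehicle library, and changed by -0.82 (standard error 0.18, adjusted p = 0.0073). Emp2 was at 394, 411, 426 and 418 CPM against 593, 546, 589.7 and 577 CPM in vehicle, again without overlap, and its change of -0.49 (standard error 0.08) had the smallest adjusted p of the members here, 0.00119. Akap5 changed by -0.59 (adjusted p = 0.0126), Pdpn by -0.58 (adjusted p = 0.0321) and Hopx by -0.56 (adjusted p = 0.0241), each lower in 4 of 4 mice. Clic5 (-0.41, adjusted p = 0.0727) and Aqp5 (-0.23, adjusted p = 0.197) did not pass, although both were lower in 4 of 4 mice and did not overlap with vehicle. Cav1 (-0.25, adjusted p = 0.319), Rtkn2 (-0.35, adjusted p = 0.839) and Vegfa (0.05, adjusted p = 0.913) did not pass either. After subtraction of the fibroblast share, 1 of the 5 lowered members still passed (Emp2, -0.43, adjusted p = 0.0213), while Ager was at -0.76 (adjusted p = 0.181). With that subtraction 0.983% of all genes were called. Without mouse 1, Emp2 was likewise the 1 member left, where 1.95% of all genes were called. Ager, Akap5 and Emp2 passed without mouse 2 or mouse 4 (2.12% and 4.38% of all genes called), and Pdpn did not pass without any single one of the 4 mice.

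EC and IPFc share TNFα, IL-1β and IL-8. Compared directly in epithelial cells, the treatments differed in 1 member, where 4.17% of all genes differed. Pdpn was higher in EC than in IPFc by 0.64 (standard error 0.15, adjusted p = 0.0157), in 4 of 4 mice. Its levels were 23.1, 34.7, 17.2 and 10.03 CPM in EC and 15.7, 19.6, 14.2 and 5.67 CPM in IPFc. The groups overlapped because the mice differed more than the treatments. Without mouse 1, without mouse 2, or after subtraction (2.36% of all genes called), Pdpn did not pass. The number of members that differed was 0 without mouse 2 and 2 without mouse 4, where 2.78% and 4.04% of all genes were called. Clic5 was at -0.41 (95% interval -0.65 to -0.17, adjusted p = 0.0738) and Ager at -0.24 (-0.59 to 0.11), so that neither was shown to differ.

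TGF-β split the members in epithelial cells. Aqp5, Clic5, Ager, Hopx and Emp2 fell, and Vegfa, Cav1 and Rtkn2 rose, whereas Pdpn (-0.15, adjusted p = 0.51) and Akap5 (-0.11, adjusted p = 0.587) did not pass. TGF-β changed 41.1% of all genes, with 21.0% higher and 20.1% lower. A count of 8 of 10 members is therefore to be read against a large background.

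Aqp5, the water channel, had the largest fall. It was at 1273, 1273, 1485 and 1171 CPM in vehicle and at 443, 418 and 327 CPM with TGF-β. No libraries overlapped, and the change was -1.83 (standard error 0.10, adjusted p = 1.71e-11). Clic5 fell to 82.4, 64.7 and 56.2 CPM, by 1.60 on the log2 scale (standard error 0.14, adjusted p = 1.7e-08). Ager, at 172, 118 and 94.6 CPM, changed by -0.93 (adjusted p = 0.000675), Hopx by -0.84 (adjusted p = 0.000215) and Emp2 by -0.70 (adjusted p = 3.43e-06), each lower in 3 of 3 mice. Beside these, 10 of the 12 epithelial reference genes also fell (median -0.60) and 21 of the 22 fibroblast reference genes tested rose (median 3.06), and their part in the members' change was not tested. After subtraction, with which 26.7% of all genes were called, Aqp5 (-1.44), Clic5 (-1.20) and Emp2 (-0.41) passed, while Ager (-0.54, adjusted p = 0.127) and Hopx (-0.45, adjusted p = 0.0597) did not. The fibroblast part was at most 3.68% of the Ager level and 1.275% of the Hopx level in TGF-β libraries. Normalization was redone after subtraction, and Akap5 also moved, from -0.11 to 0.29. The part of the new normalization in these shifts was not tested.

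The members that rose under TGF-β were also those higher in fibroblasts. Vegfa was at 83.6, 73.9, 78.7 and 68.1 CPM in vehicle and at 253, 229 and 246 CPM with TGF-β, a change of 1.60 (standard error 0.10, adjusted p = 1.31e-10). The fibroblast share accounted for an estimated 64.4% to 69.1% of that level. Without it, and before any new scaling, a mean of 63.3 CPM remained in vehicle and 79.3 CPM in TGF-β. In the fit of the subtracted counts, which were normalized anew, the change was 0.61 (adjusted p = 0.000949). Cav1 went from 48.3, 51.8, 53.4 and 69.2 CPM to 149, 184 and 154 CPM, a change of 1.43 (standard error 0.12, adjusted p = 5.79e-09). Of its level 25.4% to 40.9% was estimated to come from fibroblasts, and after subtraction the change was 1.48 (adjusted p = 2.01e-05). Rtkn2 rose from a mean of 1.27 to 4.30 CPM, by 1.62 (standard error 0.41, adjusted p = 0.00295), and did not pass after subtraction (1.75, adjusted p = 0.0796). The subtracted fibroblast profiles themselves held epithelial RNA, 1.98% in TGF-β and 39.8% in EC, so that the subtraction can take away too much. After it, 8 of the 17 fibroblast reference genes tested still rose under TGF-β and 1 fell (median 2.88). The share was itself the median ratio over such reference genes. Those with a ratio above the median therefore keep counts by construction, and this count cannot show whether the subtraction was complete. Whether fibroblast RNA remained after subtraction was not tested.

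**Figure D2:**
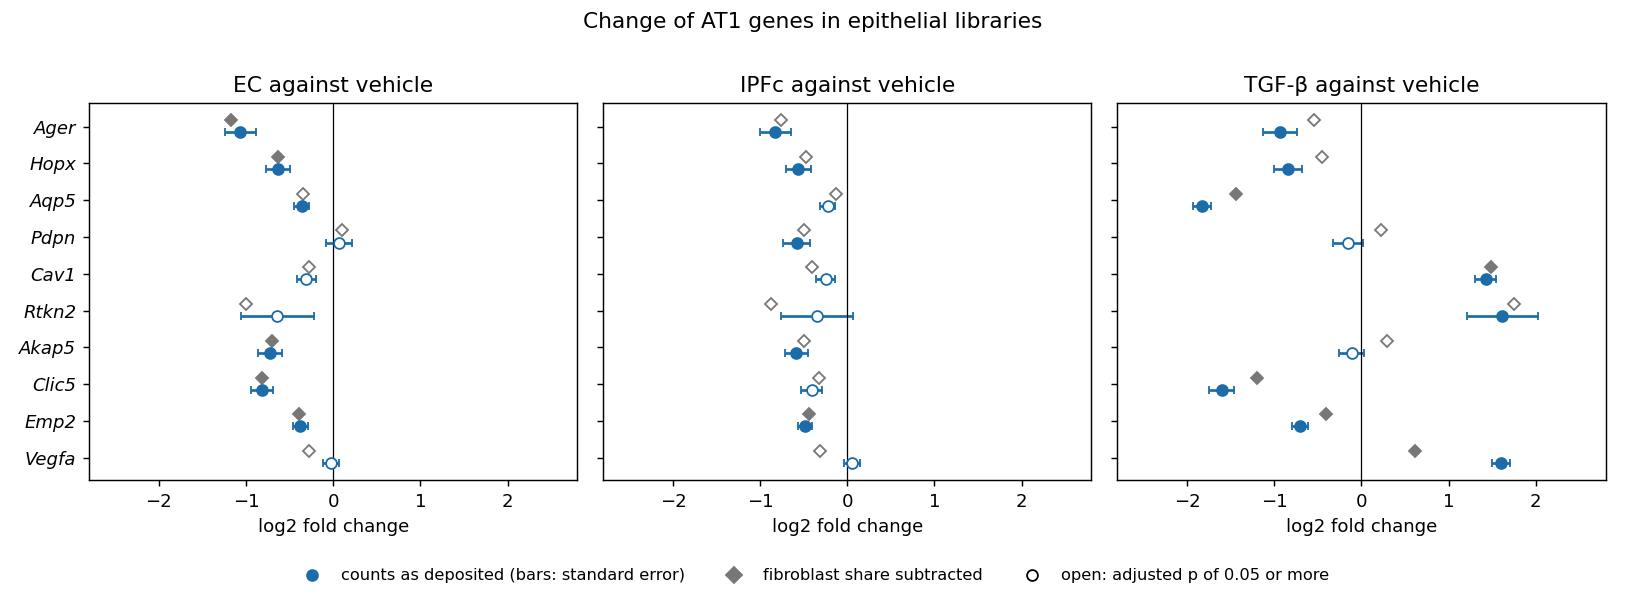
Log2 fold change of each AT1 gene against vehicle in epithelial libraries for EC, IPFc and TGF-β, with circles and standard errors for the counts as deposited and diamonds after subtraction of the fibroblast share. Filled symbols passed the adjusted p of 0.05, and the largest shift between circle and diamond is that of Vegfa under TGF-β, from 1.60 to 0.61.

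**Figure D3:**
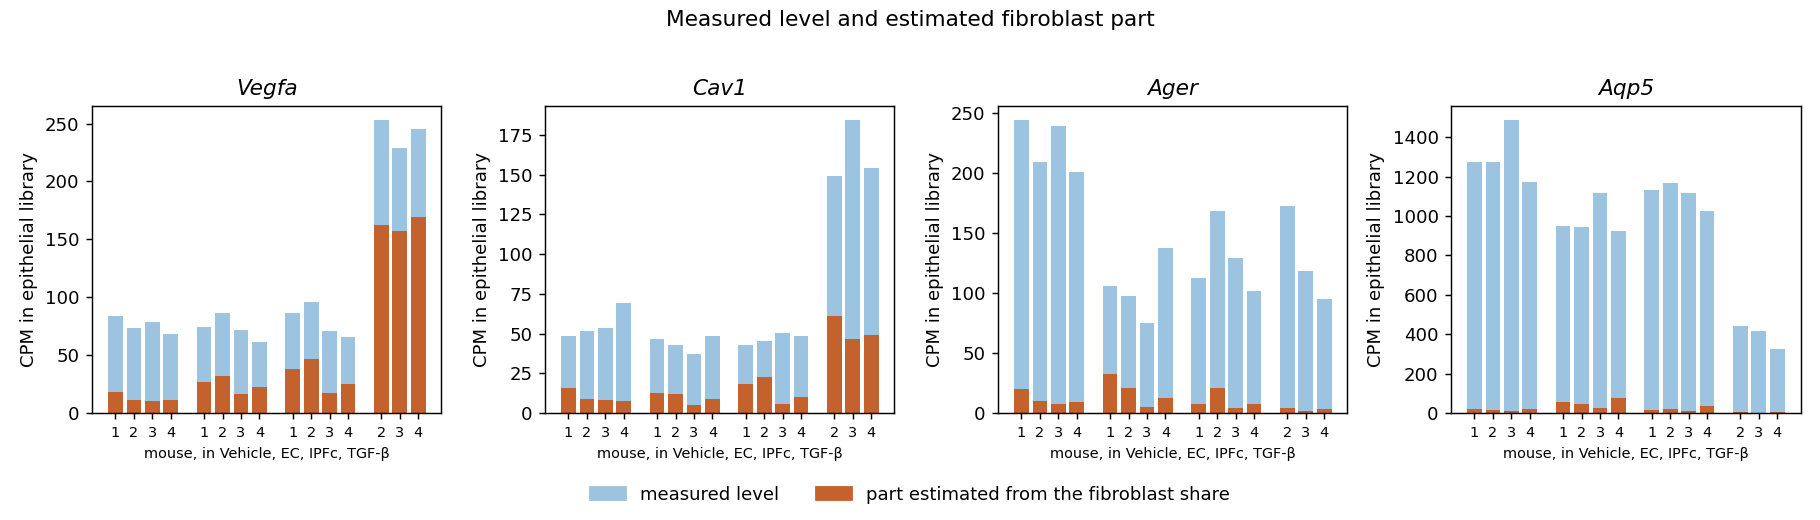
Level of Vegfa, Cav1, Ager and Aqp5 in each epithelial library in CPM, with the part estimated from the fibroblast share in orange, and libraries ordered as vehicle, EC, IPFc and TGF-β. The orange part is more than 64% of the Vegfa level in each TGF-β library and at most 3.68% of the Ager level there.

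Between the cocktails and TGF-β, 7 members differed for EC and 6 for IPFc. Aqp5 was higher in EC than in TGF-β by 1.47 and in IPFc by 1.60, and Clic5 by 0.79 and 1.20. Cav1 (-1.73 and -1.67), Vegfa (-1.63 and -1.55), Rtkn2 (-2.26 and -1.97) and Akap5 (-0.61 and -0.47) were lower in both cocktails. The difference of Akap5 did not pass without mouse 2. Emp2 was higher in EC than in TGF-β by 0.33 (adjusted p = 0.00665), a call lost without mouse 3. Of all genes, 43.1% differed between EC and TGF-β and 37.2% between IPFc and TGF-β. Ager and Hopx did not pass in either, with 95% intervals for Ager of -0.52 to 0.25 (EC) and -0.27 to 0.49 (IPFc). After subtraction, 30.4% and 26.8% of all genes differed. Vegfa was then at -0.89 (EC) and -0.93 (IPFc), Clic5 at 0.39 (adjusted p = 0.0675) and 0.88, and Emp2 in EC at 0.01 (adjusted p = 0.928), while Pdpn passed for IPFc (-0.72, adjusted p = 0.0175). These comparisons share the TGF-β libraries.

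In vehicle cultures, Hopx, Aqp5, Pdpn, Akap5, Clic5 and Emp2 were higher in epithelial than in fibroblast libraries, and Cav1, Rtkn2 and Vegfa were higher in fibroblast libraries. Of all genes, 47.1% differed. Aqp5 had the largest difference in favour of the epithelium (2.44, standard error 0.36, adjusted p = 3.09e-05). Rtkn2 (-1.98), Cav1 (-1.48) and Vegfa (-1.40) went the other way, in 3 of 3 cultures. Ager did not pass. It was at 209, 174 and 180 CPM in the fibroblast libraries of mice 1, 3 and 4, close to its epithelial levels, and the difference was 0.39 (95% interval -0.12 to 0.89, adjusted p = 0.234).

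The ratio of fibroblast to epithelial level within a culture showed how far each member departed from 12 epithelial reference genes, such as Epcam and Cdh1. Over 14 complete cultures Ager had a median ratio of 0.781, 4.14 times that of the reference genes, and lay above every reference gene in 13 of 14 cultures. Emp2 lay above them in 13 cultures, and Cav1, Rtkn2 and Vegfa in 14. Aqp5 lay within their range in all 14, with a median ratio of 0.170. Hopx and Clic5 lay above in 8, Pdpn in 7 and Akap5 in 5. Among 14 AT2 genes, the number of cultures in which a gene lay above every reference gene ran from 5 (Muc1) and 6 (Sftpd) to 14 (Lyz2 and Chil1). Sftpc, for surfactant protein C, did so in 13 (median ratio 0.733), and Sftpb, Sftpa1 and Cxcl15 in 9. The ratios are a description with no test.

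**Figure D4:**
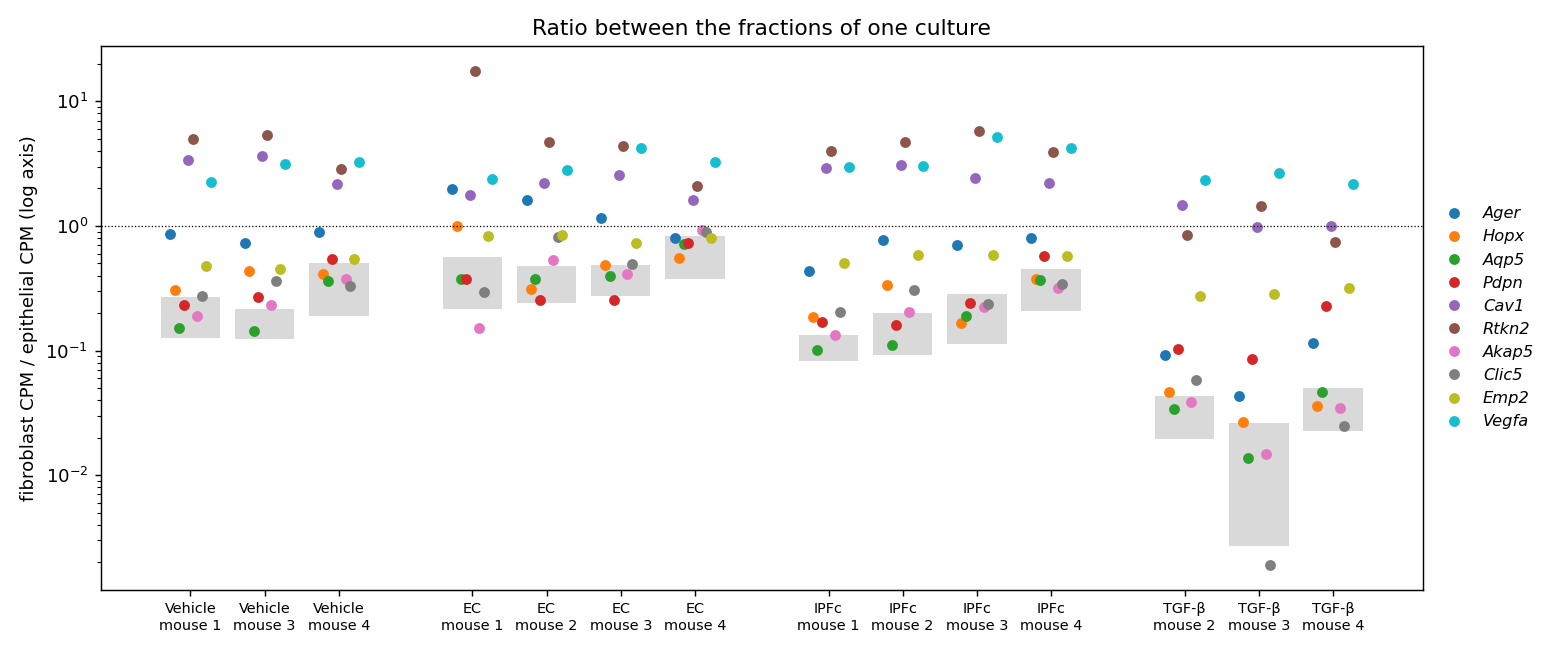
Ratio of CPM in the fibroblast library to CPM in the epithelial library of the same culture, on a log axis, for each AT1 gene (coloured points) in 14 cultures, with grey bars for the range of 12 epithelial reference genes. Ager lies above the grey bar in 13 of 14 cultures, whereas Aqp5 lies inside it in all 14.

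The difference between the fractions held in the other treatments, with exceptions. With EC, 41.9% of all genes and 9 of 10 members differed, Ager excepted (-0.32, 95% interval -0.77 to 0.12). Hopx and Emp2 did not pass there without mouse 2 or mouse 3, nor Clic5 without mouse 1 or mouse 3. With IPFc, 52.2% of all genes and all 10 members differed, with Ager higher in the epithelium by 0.68 (adjusted p = 0.0187), a call lost without mouse 1, 2 or 3. With TGF-β, 39.8% of all genes and 8 of 10 members differed. Cav1 (-0.28, adjusted p = 0.242) and Rtkn2 (-0.04, adjusted p = 0.949), higher in fibroblasts in the other 3 treatments, did not pass under TGF-β.

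In fibroblast libraries, EC lowered Cav1 alone among the members, from 165, 195 and 151 CPM to 82.5, 93.6, 96.3 and 77.9 CPM (-0.94, standard error 0.11, adjusted p = 0.000195), where 7.11% of all genes changed. The groups did not overlap. After subtraction of the epithelial share, which was 39.8% in EC, Cav1 was at -0.79 (adjusted p = 0.0548), where 0.194% of all genes were called. Aqp5 was at 0.85 (adjusted p = 0.0595) as deposited. Without mouse 1, or without its EC library alone, 3 members passed, where 11.2% and 10.9% of all genes were called. Without mouse 2 there were 2 members, where 4.76% of all genes were called. IPFc changed no member by edgeR, where 0.449% of all genes changed. At an unadjusted p under 0.05, 8 members passed, Vegfa as higher and all others but Aqp5 and Rtkn2 as lower, where 6.50% of all genes did. DESeq2 called 2 members and 1.01% of all genes, and edgeR without mouse 1 also called 2 members, beside 0.7% of all genes.

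TGF-β lowered 7 members in fibroblast libraries and raised Vegfa, where 19.2% of all genes changed and 12.8% fell. Ager was at 209, 174 and 180 CPM in vehicle and at 4.06, 15.9, 5.09 and 10.98 CPM with TGF-β, a change of -4.52 (standard error 0.37, adjusted p = 1.12e-07). Clic5 fell by 5.54, Aqp5 by 4.62, Hopx by 4.19 and Akap5 by 3.67 on the log2 scale, and Pdpn and Emp2 by 1.27 and 1.26. Beside these, the 12 epithelial reference genes summed to 486 to 839 CPM in vehicle and to 25.2 to 75.2 CPM in TGF-β, and all 12 fell, by a median of 3.68. The part of this loss of epithelial RNA in the fall of the members was not tested. After subtraction of the epithelial share, with which 5.49% of all genes were called, Ager, Clic5, Emp2 and Vegfa passed. Hopx was then at -5.34 (adjusted p = 0.152), Akap5 at -4.55 (adjusted p = 0.0623), Aqp5 at -2.28 (adjusted p = 0.701) and Pdpn at -0.12 (adjusted p = 0.999). Vegfa rose from 188, 247 and 223 CPM to 555, 589.7, 608 and 535 CPM (1.50, standard error 0.13, adjusted p = 1.35e-07), without overlap.

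The response to TGF-β differed between the fractions for 7 members (Ager, Hopx, Aqp5, Cav1, Rtkn2, Akap5 and Clic5), all with a positive interaction, that is, with a response higher in epithelial than in fibroblast libraries. Of all genes, 13.4% had such a difference and 11.3% a positive one, and the median over all genes was 0.21. All 12 epithelial reference genes (median 2.99) and 13 of 15 AT2 genes (median 2.49) also had a positive interaction, and their part in that of the members was not tested. The interaction was 3.52 for Clic5 (standard error 0.59, adjusted p = 0.000725), 3.20 for Hopx, 3.19 for Ager and 1.20 for Cav1. Cav1 did not pass without mouse 3, nor Rtkn2 without mouse 2, 3 or 4. Vegfa, which rose in both fractions, had an interaction of 0.06 (95% interval -0.44 to 0.55). For EC and IPFc no member passed in this edgeR fit, where 0.0163% and 0.0218% of all genes did. For EC, however, 1 passed in edgeR with no filter, with the mouse as block or with a term for the sample titles. In those 3 fits 1.47%, 0.37% and 0.414% of all genes passed. At an unadjusted p under 0.05, 3 members passed for EC and 0 for IPFc, where 8.26% and 2.90% of all genes did. DESeq2 called 1 member for EC and 0 for IPFc, where it called 0.447% and 0.0653% of all genes.

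Across the 15 epithelial libraries, with each mouse's mean removed, the members did not move as 1 group. Cav1 and Vegfa had the highest correlation (r = 0.941), followed by Hopx and Emp2 (0.903), Aqp5 and Clic5 (0.901) and Ager and Hopx (0.881). Aqp5 and Vegfa had the lowest (-0.959). The counts used here were not subtracted. In TGF-β libraries an estimated 64.4% to 69.1% of Vegfa and 25.4% to 40.9% of Cav1 came from fibroblasts. The part of fibroblast RNA in these correlations was not tested. Among genes with a mean of at least 5 CPM, the pattern of Ager was most like those of Matn4 (0.948), S1pr2 (0.944), Acaa2 (0.934), Apbb1 (0.926) and Lgi3 (0.915), and that of Hopx like Uvrag (0.934), Emp2, Maob (0.901), Acaa2 (0.900) and Ager. The nearest gene was Sgsm3 for Aqp5 (0.994), Homer3 for Vegfa (0.995), Tmprss2 for Clic5 (0.985), Prss23 for Cav1 (0.982), Maob for Emp2 (0.969), Slc44a2 for Akap5 (0.943), Zfp365 for Rtkn2 (0.941) and Aqp4 for Pdpn (0.884). The libraries share mice and treatments, and these values carry no test. Mouse 1 had no epithelial TGF-β library, so that its mean was taken over fewer treatments than those of the other mice.

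**Figure D5:**
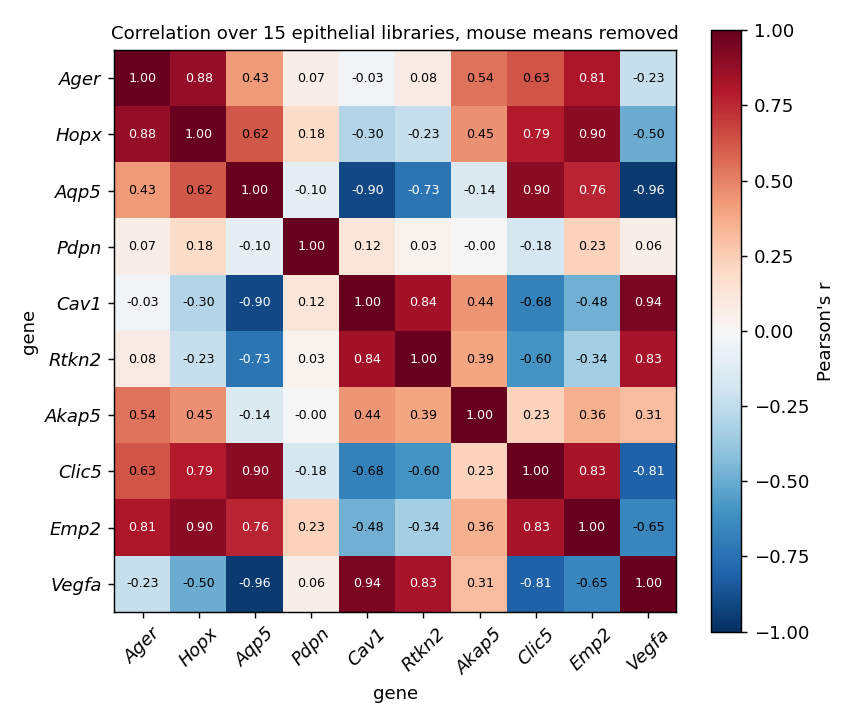
Pearson correlation between the AT1 genes over 15 epithelial libraries in log2 CPM after removal of each mouse's mean, from blue (negative) to red (positive). Aqp5 and Clic5 correlate positively with each other (0.901) and negatively with Vegfa (-0.959 and -0.811).

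Of 18 other AT1 genes, 8 fell and none rose with EC in epithelial cells (median -0.49, against 0.00 for all genes, of which 4.41% changed), and the same counts were obtained after subtraction. This list, too, was chosen with earlier results of these data known, so that it is no independent check of the members. Ndnf, a secreted neurotrophic factor, fell from a mean of 338 to 125 CPM (-1.39, adjusted p = 2.77e-07), and Limch1, an actomyosin regulator, by 1.08. With IPFc, where 4.10% of all genes changed, 5 fell and 1 rose (median -0.31), among them Scnn1g, a sodium channel subunit (-0.78), and Lmo7 (-0.46), with Sema3a higher (0.78). None of the 18 passed after subtraction. With TGF-β 8 rose and 7 fell (median 0.42), or 7 and 4 after subtraction, where 41.1% of all genes changed, or 26.7% after subtraction. The cell cycle inhibitor Cdkn2b rose (1.40), and Krt7 (-1.48) and Gprc5a (-1.05) fell.

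YAP and TAZ, with their TEAD partners, drive AT1 differentiation. Of 8 YAP/TAZ targets, 7 rose and 1 fell with TGF-β in epithelial cells, or 6 and 0 after subtraction, beside the 21.0% of all genes that rose and 20.1% that fell (26.7% changed after subtraction). Ccn2 rose by 2.09 and Ankrd1 by 3.79, and Ajuba fell by 0.58. Of 9 AT1 regulators 3 rose and 4 fell. Tead2 rose by 2.47 and Wwtr1 (TAZ) by 1.00, while Tead4 changed by -0.88 and Nkx2-1, the lung lineage factor, by -0.64. After subtraction, 2 of the 9 rose and 1 fell. In the same subtracted fit, 8 of the 17 fibroblast reference genes tested also rose and 1 fell (median 2.88). Since the share was the median ratio over such genes, some of them keep counts after subtraction by construction. The part of remaining fibroblast RNA in the rise of the YAP/TAZ targets was not tested.

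The partners and relatives of single members gave a mixed picture, to be read against the 41.1% of all genes that TGF-β changed, 4.41% for EC and 4.10% for IPFc. Of 6 caveola genes tested beside Cav1, 4 fell and none rose with TGF-β, against the direction of Cav1, with Cavin2 at -0.82 and Pacsin2 at -0.66, and the same counts held after subtraction. Of 8 VEGF ligands and receptors 5 rose with TGF-β, among them Vegfc (2.37) and Nrp1 (0.90), and 2 of the 7 tested after subtraction. Of 3 aquaporins 2 fell with IPFc, Aqp4 by 1.38 and Aqp3 by 0.89, and 1 with TGF-β, Aqp3 by 3.95. Of 4 CLIC genes, Clic3 fell with EC (-0.95) and with TGF-β (-2.39), where Clic1 also fell (-0.54) and Clic4 rose (0.47). Of 3 genes of the PMP22 family, Pmp22 fell with EC (-1.04), and with TGF-β Emp3 rose (1.61) and Emp1 fell (-0.45). After subtraction Pmp22 (adjusted p = 0.188) and Emp3 (-1.13, adjusted p = 0.281) did not pass, nor did Aqp3 with IPFc (adjusted p = 0.228), while Clic6 rose with TGF-β (0.73). Of 4 podoplanin partners, Ezr rose with IPFc (0.43), and with TGF-β Msn (0.90) and Cd44 (0.79) rose and Ezr fell (-0.79).

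Beside the AT1 genes, 15 AT2 genes had 7 lower and 2 higher members with EC, 2 and 1 with IPFc, and 13 and 1 with TGF-β, with a median of -1.30 under TGF-β, where 4.41%, 4.10% and 41.1% of all genes changed. After subtraction the counts were 2 and 2, 0 and 1, and 9 and 1. The 5 mesothelial markers summed to 1045 to 1202 CPM in epithelial vehicle libraries and to 545 to 660 CPM in TGF-β. Msln (mean 815 CPM in vehicle) and Upk1b (283 CPM) made up nearly all of the sum, while Upk3b, Wt1 and Lrrn4 were at or near 0. The part of Msln and Upk1b in the members' change was not tested.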

How the data were processed

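RNA of Epcam+ and Epcam- cells was sequenced as bulk RNA in 30 libraries. After trimming (Trimmomatic 0.30) the authors aligned reads to a mouse genome (GRCm39 in the labels, GRCm38 patch 6 in the study's methods) and deposited the raw count of reads per gene for 55487 genes, without normalization. The aligner and counter are not given in the sources used here, nor is the strand setting. RefSeq positions and promoters are from GRCm38.p6. From these counts, edgeR 4.0.16 in R 4.3.3 (TMM, quasi-likelihood, two-sided) was run over the 15 libraries of each fraction with the mouse as a block, on genes with a mean count of at least 1 and an adjusted p threshold of 0.05. Fractions were compared over all 30 libraries with the culture as a block. Standard errors are the log2 change over the root of F, and 95% intervals are 1.96 standard errors either way.

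The biological coefficient of variation was 12.7% (epithelial), 16.9% (fibroblast) and 21.6% (both). Libraries of one number came from one mouse per the labels. Deviations from group means had a mean correlation of 0.354 (epithelial) and 0.358 (fibroblast) for libraries of one mouse, against -0.112 and -0.116 for those of different mice. Since deviations within a group sum to 0, the values for different mice are tied to the others and are no independent comparison. Single correlations for libraries of one mouse ran from 0.022 to 0.752 (epithelial) and from -0.27 to 0.745 (fibroblast). No library was a repeat, as chi-square per degree of freedom within groups was 5.76 to 83.2. CPM used total counts, and no molecular identifiers are described, so depth limits cover counting error only.

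The share of the other fraction was the median CPM ratio to the partner library over those reference genes that reached 50 CPM there, where the remaining fibroblast vehicle libraries, averaged, stood in for the fibroblast vehicle library of mouse 2, and the epithelial TGF-β libraries for that of mouse 1, neither analysed here. Subtraction took that share of the partner's counts. Library totals and TMM factors were then computed anew from the counts that remained, so that genes with little of the other fraction can move too. The members and gene lists were chosen with earlier results of these data known. Named were the 10 members, at most 2 higher and 2 lower genes per list and comparison by adjusted p, and the genes most like each member (log2 CPM, prior count 2). Alternatives were DESeq2 1.42.0, its size factors, other filters, robust estimation, each mouse left out, a term for titles ending in R (meaning not given), other blocks, 2 groups only and subtraction. Subtraction from fibroblast libraries and the omission of the shallowest library were chosen after seeing the data.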

Additional observations from a re-analysis of the deposited data

Results flagged for a closer look

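Among 66 sets of 4 libraries (each member's level in a group, and each group's share of the other fraction), 4 held a library far from the other three by Dixon's test, where chance flags about 1 in 20. Aqp5 was at 1119 CPM in the epithelial EC library of mouse 3, against a median of 945 CPM in the others. Emp2 was at 198 CPM in the fibroblast IPFc library of mouse 1, against 240.5 CPM. The estimated fibroblast share was 9.48% in the epithelial vehicle library of mouse 1, against 4.94%. The estimated epithelial share was 57.0% in the fibroblast EC library of mouse 4, against 34.6%.

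The response to TGF-β differed between epithelial and fibroblast libraries for 7 members by the interaction test in edgeR. The log2 differences were 3.52 for Clic5, 3.20 for Hopx, 3.19 for Ager, 2.98 for Akap5, 2.60 for Aqp5, 1.94 for Rtkn2 and 1.20 for Cav1, with adjusted p-values of 5.69e-05 (Ager) to 0.0332 (Rtkn2). The share of epithelial RNA in fibroblast libraries moved with them, from 19.1% in vehicle to 1.98% in TGF-β, and its part in these differences was not tested. Leaving out mouse 3 ended the call of Cav1, and leaving out mouse 2, 3 or 4 that of Rtkn2.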

How the results depend on the processing

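Each member called in a comparison kept its direction under every alternative run (1063 values), and 65 of these values no longer passed the threshold. The counts of called members moved by more than 1.5 times as follows, and the cause was not tested. Without the replicate block, 3 members were called for EC against vehicle in epithelial libraries (6 with it), 2 for IPFc (5) and 0 for EC against IPFc (1). Of all genes 2.17%, 1.65% and 2.34% were called there. After subtraction of the fibroblast share there were 1 for IPFc, 5 for TGF-β (8) and 0 for EC against IPFc. In the same order, 0.983%, 26.7% and 2.36% of all genes were called after subtraction. DESeq2 and no filter each called 2 for EC against IPFc, where they called 5.32% and 4.28% of all genes. In fibroblast libraries, EC (1) gave 3 with DESeq2, 3 with no filter, 2 with DESeq2 size factors, 2 in the fit of the 2 groups alone with the replicate block, 0 after subtraction of the epithelial share and 3 without the shallowest library, the EC library of mouse 1. In the same order, 11.3%, 7.53%, 7.45%, 10.1%, 0.194% and 10.9% of all genes were called. Fibroblast IPFc (0) gave 2 with DESeq2, 4 with no filter and 4 in the fit of the 2 groups alone with the replicate block, where 1.01%, 0.923% and 1.27% of all genes were called. Fibroblast TGF-β (8) gave 4 after subtraction, where 5.49% were called. The fraction by EC interaction (0) gave 1 with DESeq2, no filter, the title term or the mouse as replicate block, where 0.447%, 1.47%, 0.414% and 0.37% of all genes were called. Leaving out 1 mouse at a time, the counts of members ranged from 3 to 6 for epithelial EC, 1 to 4 for IPFc, 0 to 2 for EC against IPFc, 1 to 3 for fibroblast EC and 0 to 2 for fibroblast IPFc. The shares of all genes called ranged, in the same order, over 2.33% to 3.97%, 1.95% to 4.38%, 2.49% to 4.04%, 1.21% to 11.2% and 0.0779% to 0.7%. All other counts stayed within 1.5 times.

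Among all genes, the number called moved by more than 1.5 times in most comparisons. For epithelial EC it was 794, against 391 with no replicate block, 351 after subtraction and 421 without mouse 1, and for epithelial IPFc 739, against 297, 173 and 352, and 1118 with no filter. Epithelial TGF-β gave 7400 and, after subtraction, 4694. Fibroblast EC gave 1284, against 2040 with DESeq2, 217 without mouse 3 and 34 after subtraction, and fibroblast IPFc 81, against 251 with no filter, 14 without mouse 3 and 8 after subtraction. Fibroblast TGF-β gave 3457, and 960 after subtraction. The TGF-β interaction gave 2463, and 971 without mouse 3, while the EC interaction gave 3, and 438 with no filter. Rtkn2, at about 1 CPM in epithelial vehicle libraries, was limited by depth.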
